A study of Danio rerio with 6 samples.

Results

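Of the 6 zebrafish liver libraries in this RNA sequencing series, 3 carried transcripts of egg coat genes and 3 carried almost none. The division runs across the genotypes. The libraries were divided by 1 transcript, zp2.2, which encodes a protein of the egg coat. Per 1000000 counts over named genes (CPM), its level was 25.2 and 27.4 in wild-type (WT) replicates 1 and 2 and 40.7 in scd mutant replicate 1. It was 0.0403 in WT replicate 3, 0.0438 in mutant replicate 2 and 0 in mutant replicate 3. The line between the sides was drawn at 1 CPM, and no library lay near it. The first 3 are called zp2.2-high here and the other 3 zp2.2-low. Where 3 values are given for a side, they stand in the order WT replicate 1, WT replicate 2, mutant replicate 1 for the zp2.2-high side, and WT replicate 3, mutant replicate 2, mutant replicate 3 for the zp2.2-low side.

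The study compared WT livers with those of fish carrying a CRISPR-Cas9 knockout of scd. The gene encodes stearoyl-CoA desaturase, which makes monounsaturated fatty acids. Both genotypes were kept at a water temperature of 28 °C, and 3 libraries of total RNA were made from each. The zp2.2-high side therefore holds 2 WT libraries and 1 mutant library, and the zp2.2-low side holds 1 WT library and 2 mutant ones. The sources used here do not state strain, allele, number of mutant lines, sex, age or feeding state, or whether a library came from 1 fish or several. Replicates may therefore be partly technical, and the p-values of the genotype test measure only the spread between these libraries.

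In zebrafish the oocyte grows inside an ovarian follicle and fills with yolk. It also fills with maternal transcripts that serve the embryo before its own genome is active. The zebrafish oocyte also builds the egg coat from zona pellucida proteins, and it carries germ plasm, which specifies the germ cells. The yolk precursor vitellogenin is different, since it is made in the liver under oestrogen and travels to the ovary in the blood. Oocyte transcripts and vitellogenin transcripts are thus normally made in different organs. How oocyte transcripts came into these liver libraries was not tested.

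Counts over named genes lay between 22525340 and 25852954 per library. Vitellogenin transcripts made up 44.1% to 57.3% of them in 5 libraries and 0.0433% in mutant replicate 3, which is on the zp2.2-low side. Levels below are CPM on library sizes scaled with TMM, the trimmed mean of M-values, and the TMM factor of mutant replicate 3 was 2.95 against 0.632 to 1.07 in the others. The targeted gene scd stood at 30.3, 18.1 and 691 CPM on the zp2.2-high side and at 429.9, 110.3 and 56.6 CPM on the zp2.2-low side. The transcript level does not show the edit, so it does not check the labels.

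On the TMM scale zp2.2 stood at 27.2, 36.2 and 64.4 CPM on the zp2.2-high side, from 568, 693 and 1053 counts. It had 1, 1 and 0 counts on the zp2.2-low side. Since the libraries were chosen by a measured value, no difference between the sides was tested, and what follows is a description. A gene was said to follow zp2.2 when its lowest value on one side was at least 4 times its highest value on the other side and at least 1 CPM. Of 12889 genes that passed a filter on low counts, 189 followed upward, which is 1.47%, and 3 followed in the other direction, which is 0.0233%. Without the filter the same 189 genes followed upward, 0.611% of 30954 genes.

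The transcripts that followed upward were nearly absent from the zp2.2-low libraries. Together the 189 genes summed to 1875, 2264 and 2522 CPM on the zp2.2-high side and to 34.6, 19.5 and 18.7 CPM on the zp2.2-low side. In the zp2.2-high libraries they took 0.174%, 0.171% and 0.160% of named counts. For 100 of them the 3 zp2.2-low libraries held at most 3 counts in sum, and 41 of these had 0. The other 89 were graded, with more than 3 counts there. In 185 of the 189 genes the highest zp2.2-low value was under 1 CPM. At the edge of the rule, larp6a was the gene just inside with a ratio of 4.15 and cdc20 the gene just outside with a ratio of 3.65. At the limit of 1 CPM, the lowest zp2.2-high value was 1.01 CPM for akap1a, just inside, and 0.994 CPM for zgc:173742, just outside. Which cells held these transcripts was not tested. Were they oocytes, a smaller number of them and less RNA in each could not be told apart in bulk tissue.

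**Figure D1:**
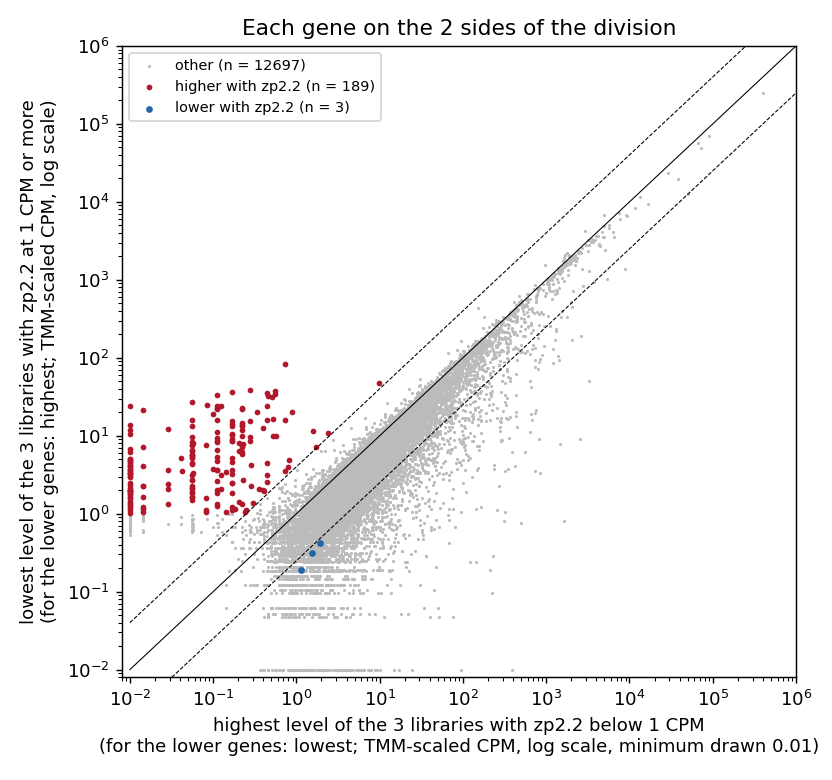
Each point is a gene. The horizontal axis gives its highest level in the 3 zp2.2-low libraries and the vertical axis its lowest level in the 3 zp2.2-high libraries, both in TMM-scaled CPM on log axes, except that the 3 lower genes are drawn at their lowest zp2.2-low and highest zp2.2-high levels. Red marks the 189 genes that followed upward and blue the 3 that followed downward, the solid line is equality, and the dashed lines are 4-fold ratios; grey genes under the lower line overlap between the sides or miss the rule. The red genes lie at the left, most of them under 1 CPM in every zp2.2-low library.

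The egg coat genes were the most complete group. The list held 24 zona pellucida genes, of which 22 were in the table and passed the filter, and 20 of the 22 followed upward against 1.47% of all genes tested. These 20 include zp2.2, which chose the sides and had to follow, so 19 of the other 21 followed. The list's summed level was 409, 508 and 634 CPM on the zp2.2-high side. It was 5.05, 1.68 and 0.954 CPM on the zp2.2-low side. Set against the mean of the zp2.2-high libraries, those residues are 0.977%, 0.326% and 0.185%, so WT replicate 3 held the most. Without zp2.2 the sums were 381, 472 and 569 CPM against 4.99, 1.64 and 0.954 CPM.

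The transcript of the zp3 family member zp3.2 was the most abundant of the list. It stood at 83.0, 108.4 and 122.4 CPM on the zp2.2-high side and at 0.729, 0.164 and 0.0569 CPM on the zp2.2-low side. The ratio of the sides' summed counts, each over its scaled library sizes, was 552, with a 95% counting interval from 361 to 892. Between single libraries, its lowest zp2.2-high value was 114 times its highest zp2.2-low value. The gene zp2.5 had 287, 337 and 412 counts in the zp2.2-high libraries and 0 in all 3 others. Taking 3 counts over the zp2.2-low group as the floor, its level was 689-fold higher. The lower limit of its 95% counting interval was 559-fold. Set against 3 counts in WT replicate 3 alone, its lowest zp2.2-high value was 81.7-fold higher. The zpax genes, another branch of the family, gave 38.6, 56.0 and 46.9 CPM for zpax1 and 37.5, 47.2 and 48.9 CPM for zpax4, and at most 0.281 and 0.561 CPM in a zp2.2-low library. Their 4 to 21 counts per zp2.2-low library are above 0, and such residues were seen in all 3 libraries.

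The 2 egg coat genes that missed the rule were also higher on the same side. For zp2.6 there were 158, 182 and 15 counts on the zp2.2-high side and 0 in each zp2.2-low library. It failed because 15 counts are 0.917 CPM, and within the zp2.2-high side its level reached 9.52 CPM. For zp2l2 there were 20, 28 and 24 counts against 0, 0 and 1. Members of a gene family can be alike in sequence, and the sources used here do not state how reads aligning to several genes were counted, so counts of single members are uncertain.

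Genes of the germ plasm and of the piRNA pathway followed in part. The list held 24 genes in the table, 14 passed the filter, and 5 followed upward, 35.7% of those measured against 1.47% of all genes tested. High counts in the zp2.2-high libraries help a gene to pass the filter, so the 35.7% depends in part on the division itself. The organizer of the Balbiani body, buc, stood at 14.4, 13.1 and 12.4 CPM on the zp2.2-high side and at 0, 0 and 0.0285 CPM in the others. Its summed-count ratio was 752 with a counting interval from 208 to 6223. The RNA helicase gene ddx4, also called vasa, was at 1.68, 1.83 and 1.41 CPM against 0, 0.205 and 0.0285 CPM. The piRNA pathway genes asz1 and tdrd1 and the carbonic anhydrase gene ca15b were the other 3. The remaining measured genes of the list did not follow. The list's summed level was 41.7, 47.5 and 44.1 CPM on the zp2.2-high side and 7.57, 7.56 and 20.8 CPM on the zp2.2-low side. Transcripts of the list were thus present on both sides, and most of the zp2.2-low level came from genes that did not follow. Of the list, 2 genes followed under scaling by total counts and 8 under scaling by total counts without vitellogenin.

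Several classical germ cell genes, named after their values were seen, were present on the zp2.2-high side at too few counts for the rule. The RNA-binding protein gene dazl had 28, 23 and 6 counts on the zp2.2-high side. The piRNA effector gene piwil1 had 7, 33 and 12. The germ cell survival gene dnd1 had 13, 13 and 16, and nanos3, another germ cell gene, had 5, 3 and 15. All 4 had 0 counts in each of the 3 zp2.2-low libraries, which allows up to 3 counts per library. Counts on the zp2.2-high side were few but were found in every one of its libraries.

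Oocyte growth and maternal factor genes formed the other large group, with 20 of 28 measured genes following upward, against 1.47% of all genes tested, and 14 of the 20 nearly absent from the zp2.2-low side. The list has 41 genes in the table, and the 28 passed a filter that high counts in the zp2.2-high libraries help a gene to pass. The secreted oocyte growth factor bmp15 stood at 2.205, 1.62 and 2.14 CPM on the zp2.2-high side and at 0.0561, 0.0411 and 0.0427 CPM in the others. The maternal linker histone h1m stood at 11.9, 14.4 and 23.9 CPM against 0.224, 0 and 0 CPM. The oocyte gene zar1 was at 8.43, 12.4 and 18.3 CPM against 0.112, 0 and 0.0285 CPM. The rule itself sets the sides of these 3 followers apart. In h1m and zar1 mutant replicate 1 was the highest library.

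Regulators of stored messenger RNA were among them. The polyadenylation element binding protein gene cpeb1b stood at 6.66, 10.4 and 8.07 CPM against 0.0561, 0 and 0.0142 CPM. The translation initiation factor gene eif4e1b, an oocyte form in vertebrates, stood at 1.63, 1.26 and 2.87 CPM against 0 in all 3. That is 69.8-fold higher at the floor of 3 counts over the group, and the counting interval began at 55.8-fold. Set against 3 counts in WT replicate 3 alone, the lowest zp2.2-high value of eif4e1b was 7.46-fold higher. The genes patl2, which acts in oocyte maturation in the mouse, and btg4, which acts there in the removal of maternal transcripts, were at 3.07, 5.49 and 3.73 CPM and at 1.39, 2.04 and 6.67 CPM, and each had 0 counts in the zp2.2-low libraries. All 4 genes are followers, so the rule excludes an overlap of their sides. The kinase gene mos, known for holding the mature egg in meiosis, was at 1.63, 2.04 and 2.94 CPM against 0.0561, 0 and 0.0142 CPM. The maternal transcription factor gene nanog was at 2.49, 4.29 and 2.08 CPM against 0, 0 and 0.0285 CPM.

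Genes for chromatin and for RNA storage in the egg stood with these. The nucleoplasmin gene npm2b was at 4.07, 4.86 and 8.56 CPM with 0 counts on the zp2.2-low side. The histone gene h2af1al was at 9.87, 11.3 and 38.8 CPM against 0.0561, 0 and 0.527 CPM, and it was 1 of 3 genes from lists outside the gonad and the cell cycle that followed upward. The gene gtf3ab encodes a factor of the TFIIIA type, which in frog oocytes drives 5S ribosomal RNA synthesis and binds the product, and it stood at 5.37, 6.48 and 19.3 CPM against 0.112, 0 and 0.0569 CPM. The gene the table calls si:dkey-208k4.2 has the RefSeq symbol 42sp43, the name of a frog oocyte protein of stored 5S ribosomal RNA. It was at 1.96, 3.87 and 5.14 CPM with 0 counts in the zp2.2-low libraries.

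The oocyte list also held genes that did not follow. Its most abundant member was ybx1, a cold-shock domain protein of many cell types, at 1858, 2079 and 1354 CPM on the zp2.2-high side and at 1844, 695 and 234 CPM on the zp2.2-low side. Its sides overlap. The oocyte genes gdf9, with 6, 12 and 13 counts against 0, and figla, with 5, 22 and 21 counts against 0, were below the level the rule asks.

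Cell cycle genes split. Of 45 measured genes of DNA replication and mitosis, 8 followed upward, 17.8% against 1.47% of all genes tested, all of them cyclins, mitotic kinases or other regulators of cell division, and none followed downward by the 4-fold rule. The germ cell cyclin ccna1 stood at 5.37, 8.11 and 18.4 CPM against 0.0561, 0 and 0.0285 CPM. The mitotic cyclin ccnb1 stood at 11.5, 11.4 and 16.6 CPM against 1.57, 0.986 and 0.569 CPM, and ccnb2 at 5.85, 6.17 and 11.1 CPM against 0.224, 0.205 and 0.214 CPM. The others were ccna2, the kinases aurka and plk1, the chromosomal passenger gene birc5b and fbxo5, an inhibitor of the anaphase-promoting complex. The proliferation markers mki67 and top2a, named after their values were seen, did not follow. The marker mki67 was at 1.58, 1.73 and 2.45 CPM on the zp2.2-high side and 3.82, 3.33 and 4.81 CPM on the zp2.2-low side. For top2a the values were 2.78, 2.82 and 1.04 CPM against 4.82, 1.97 and 1.75 CPM, and the sides overlap. By a 2-fold gap 11 genes of the list were higher and 2 lower. The list's summed level overlapped, at 162 to 209 CPM on the zp2.2-high side against 135 to 229 CPM. Of the list, 4 genes followed under scaling by total counts and 6 under scaling by total counts without vitellogenin.

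The replicative helicase genes mcm3 and mcm6 and their copies lay on opposite sides. In the frog, mcm3 and mcm6 each have a maternal and a zygotic form. Here the copy mcm3l stood at 3.55, 5.02 and 7.03 CPM on the zp2.2-high side and at 0, 0 and 0.0427 CPM on the zp2.2-low side. Its partner mcm3 stood at 2.16, 3.87 and 3.36 CPM against 10.3, 10.6 and 18.6 CPM. Likewise mcm6l stood at 4.50, 3.97 and 3.79 CPM against 0, 0 and 0.0997 CPM, and mcm6 at 2.205, 4.18 and 2.57 CPM against 12.3, 9.49 and 18.1 CPM. The 4-fold rule, which mcm3l and mcm6l met, excludes an overlap of the sides, as does the 2-fold rule, which mcm3 and mcm6 met. The downward gap of mcm3 and mcm6 was over 2-fold but under 4-fold, and both passed the 2-fold rule under all 4 scalings.

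Another pair behaved differently. The glycolytic gene tpi1a, encoding triosephosphate isomerase, followed upward at 2.3, 1.52 and 1.04 CPM against 0, 0 and 0.0142 CPM. Its copy tpi1b stood at 215, 225 and 238 CPM against 149, 127 and 227 CPM. The ranges of tpi1b overlap.

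Genes of the ovarian follicle gave a mixed picture, with the defining genes of follicle cells at or near 0. The oestrogen-producing aromatase gene cyp19a1a, the follicle transcription factor foxl2a and the receptor gene fshr had 0 counts in all 6 libraries, which allows up to 3 counts in each, and foxl2b had 1 count in WT replicate 2. Of 7 measured genes on the follicle and steroid list, 1 followed upward, 14.3% against 1.47% of all genes tested. This was cyp11a1, which encodes the first enzyme of steroid synthesis and is also a maternal transcript in zebrafish, at 2.25, 1.93 and 3.98 CPM against 0, 0 and 0.413 CPM. It did not follow under scaling by total counts with or without vitellogenin. The list has 29 genes in the table, and high counts on the zp2.2-high side help a gene to pass the filter. The steroid genes cyp17a1, with 16, 29 and 20 counts against 0, 0 and 8, and hsd3b2, with 11, 12 and 8 counts against 0, were below the level the rule asks. The summed level of the list did not overlap, at 195 to 290 CPM on the zp2.2-high side and 53.9 to 177 CPM on the zp2.2-low side, and most of it was the oestrogen receptor gene esr2b, which is also on the vitellogenin and oestrogen list, at 199.6, 243.8 and 144 CPM against 146.5, 88.4 and 17.6 CPM. The sides of esr2b overlap, and how much of the sum comes from follicle cells was not tested. Of the testis list 1 gene passed the filter and did not follow, and the list's summed level was 1.15 to 1.71 CPM against 1.07 to 3.70 CPM. Meiosis genes summed to 4.55 to 6.42 CPM against 5.75 to 6.66 CPM. Of the 55 followers that are in any list, 44 were on the egg coat, germ plasm or oocyte list. These lists held 22, 14 and 28 of the 1176 listed genes tested, with some shared between lists. They were chosen with earlier results of these data known.

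**Figure D2:**
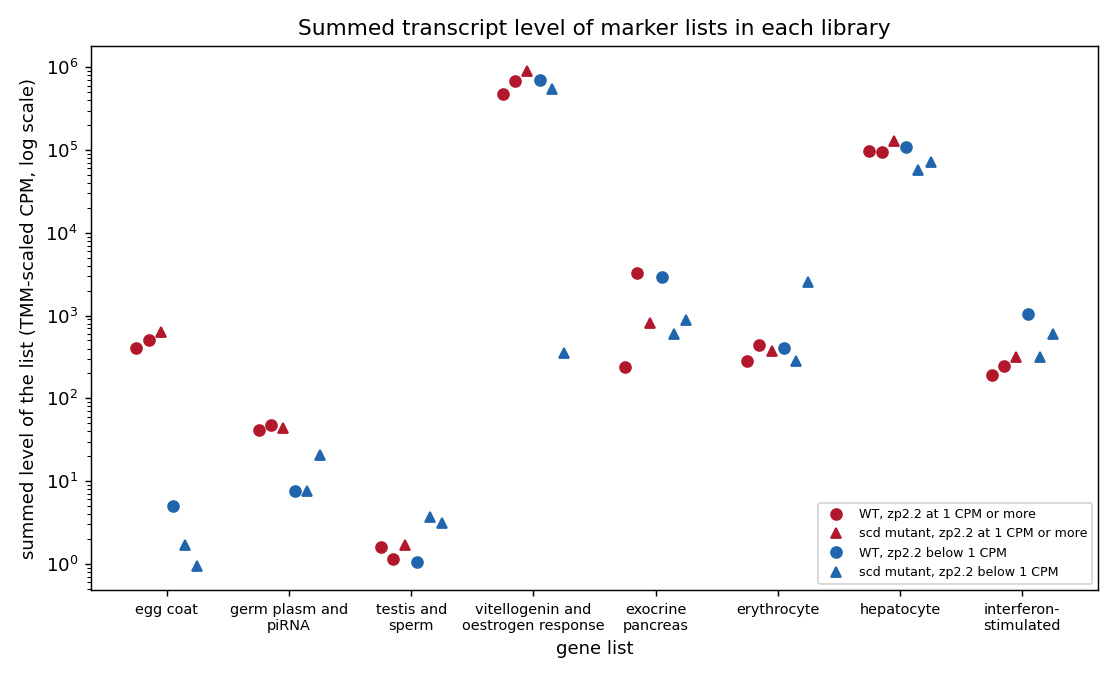
The summed level of 8 marker lists in each library, in TMM-scaled CPM on a log axis, with circles for WT, triangles for mutant, red for the zp2.2-high libraries and blue for the zp2.2-low ones. Egg coat transcripts separate 409 to 634 CPM from 0.954 to 5.05 CPM, and germ plasm transcripts 41.7 to 47.5 CPM from 7.56 to 20.8 CPM. The sides overlap in the testis, vitellogenin, exocrine pancreas, erythrocyte, hepatocyte and interferon-stimulated lists, and vitellogenin is low in mutant replicate 3 alone.

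Most genes that followed upward were in no list, as were most of all genes tested. They were 134 of the 189, while 1176 of the 12889 genes tested were in a list. Clone-based or provisional names, for most of which no role is given here, were held by 89 of the 189. The share of such names over all genes tested is not given here. Among the 134 genes, zgc:171474 was at 27.5, 30.6 and 23.98 CPM on the zp2.2-high side with 0 counts in the others. It was 1031-fold higher at the floor of 3 counts over the zp2.2-low group, and its counting interval began at 837-fold. Set against 3 counts in WT replicate 3 alone, its lowest zp2.2-high value was 142-fold higher. The gene zgc:171750 was at 21.4, 32.9 and 22.8 CPM against 0, 0 and 0.0142 CPM, a ratio of 2893 with a counting interval from 518 to 114356. As followers, neither gene can overlap between the sides. The gene retsatl, named for its likeness to retinol saturase, was at 23.96, 25.05 and 30.3 CPM against 0.0561, 0.123 and 0 CPM. The transcript of zgc:56699, whose RefSeq symbol gtsf1 is that of a piRNA pathway factor, was at 3.31, 3.35 and 4.53 CPM against 0.0561, 0 and 0.0569 CPM.

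Some of the 189 genes neighbour each other. Of the 189, 163 could be matched by name to the RefSeq gene order of assembly GRCz12tu, another build than the authors', and 44 of them lay in 13 runs with at most 2 other annotated genes between members. The longest run held 7 genes, zgc:171977, zgc:152652, si:ch211-146l10.7, zgc:171750, zgc:171474, zgc:173856 and si:ch211-146l10.8, and its members stood between 15.8 and 49.2 CPM in the zp2.2-high libraries and at most at 0.449 CPM in the others. A run of 6 genes from si:ch211-145c1.1 to zgc:153499 also held no listed gene. The run around zp2.2 held 5 genes, zp2.2, zp2.3, si:zfos-1505d6.3, zp2.1 and zp2.5. Neighbouring copies can be alike in sequence and can share reads, so a run is not as many separate measurements as it has genes. The share of all genes tested that lie in such runs is not given here.

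No gene of 7 lists of hepatocyte function followed zp2.2 on the TMM scale. That is none of 274 measured genes in either direction, where 1.47% of all genes tested followed upward and 0.0233% downward. Under scaling by total counts, with or without vitellogenin, 1 gene of the gluconeogenesis, fasting and insulin list followed downward. The follower ppp1r3ca, a glycogen gene described below, is in no list, so the count of 0 depends on which genes the lists hold. Glycolysis is not among the 7 lists. The sums of the glycolysis list did not overlap, at 11825 to 15350 CPM on the zp2.2-high side against 5830 to 10078 CPM. It holds the follower tpi1a. Over all lists outside the gonad and the cell cycle, 3 of 1058 measured genes followed upward, h2af1al, tpi1a and vldlr, and 1 followed downward, pkz. The lipoprotein receptor gene vldlr, whose counterpart takes up yolk precursors in the chicken oocyte, was at 5.80, 7.37 and 4.46 CPM against 0.449, 0.164 and 0.342 CPM. Summed hepatocyte transcripts were 94973 to 129152 CPM on the zp2.2-high side and 56868 to 110201 CPM on the zp2.2-low side. Exocrine pancreas transcripts were 239 to 3264 CPM against 592 to 2952 CPM and erythrocyte transcripts 286 to 444 CPM against 286 to 2572 CPM, so these overlap between the sides. The sums of 3 other tissue lists did not overlap. None of their measured genes followed, which were 8 for intestine, 2 for muscle and 29 for collagen and matrix. With so few genes and 1.47% of all genes tested following upward, a count of 0 says little. Intestine transcripts were 724 to 848 CPM on the zp2.2-high side against 413 to 662 CPM, muscle transcripts 613 to 746 CPM against 375 to 471 CPM, and collagen and matrix transcripts 2630 to 2867 CPM against 727 to 2183 CPM. Their part in the values of the followers was not tested.

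A few followers were measurable on both sides. Only 4 of the 189 reached 1 CPM in a zp2.2-low library, ppp1r3ca, ccnb1, caprin2 and larp6a. The gene ppp1r3ca, which encodes a subunit that targets a phosphatase to glycogen, stood at 164, 168 and 47.0 CPM on the zp2.2-high side and at 9.93, 6.53 and 4.63 CPM on the zp2.2-low side. It was the most abundant of the 4, and it was lower in each mutant library than in every WT library on the same side. The RNA-binding protein gene caprin2 stood at 10.97, 14.96 and 11.1 CPM against 0.617, 2.42 and 0.128 CPM. By a 2-fold gap 230 genes were higher, 1.78% of those tested. The further genes include ppdpfa at 997, 841 and 438 CPM against 152, 33.2 and 36.0 CPM and the histone chaperone gene nasp at 26.3, 28.4 and 28.6 CPM against 4.096, 6.57 and 12.1 CPM.

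Within the zp2.2-high libraries the followers did not keep 1 fixed proportion. Between the WT libraries, the log2 ratio of replicate 2 over replicate 1 had a median of 0.27 over the 189 genes, with quartiles of -0.01 and 0.50. The log2 ratio of mutant replicate 1 over the geometric mean of the WT libraries had a median of 0.40, with quartiles of -0.16 and 0.89 and a range from -2.34 to 2.83. In 35 genes this ratio was above 1 and in 5 below -1, against 7 and 4 for the ratio between the WT libraries. The median was 0.64 over 20 egg coat genes, 0.65 over 20 oocyte genes, 0.66 over 8 cell cycle genes and -0.02 over 5 germ plasm genes. A library's scaling factor shifts all its ratios alike, so these medians and counts depend on the scaling. The TMM factors were 0.926 and 0.755 in WT replicates 1 and 2 and 0.632 in mutant replicate 1. As a share of named counts the 189 genes were lowest in mutant replicate 1, at 0.160% against 0.174% and 0.171%.

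The same spread is seen in single genes. The log2 ratio of mutant replicate 1 over the WT libraries was 1.99 for btg4, 1.88 for h2af1al, 1.71 for gtf3ab, 1.64 for birc5b and 1.48 for ccna1. It was -1.82 for ppp1r3ca, -0.65 for nanog, -0.55 for vldlr and -0.52 for zp2.1. The highest value, 2.83, was that of si:ch211-226h8.4, at 1.92, 5.12 and 22.32 CPM on the zp2.2-high side, and the lowest, -2.34, that of si:ch1073-170o4.1, at 7.28, 7.58 and 1.47 CPM. Both had 0 counts on the zp2.2-low side. With 1 mutant library on the zp2.2-high side, genotype and the single library cannot be told apart here.

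**Figure D3:**
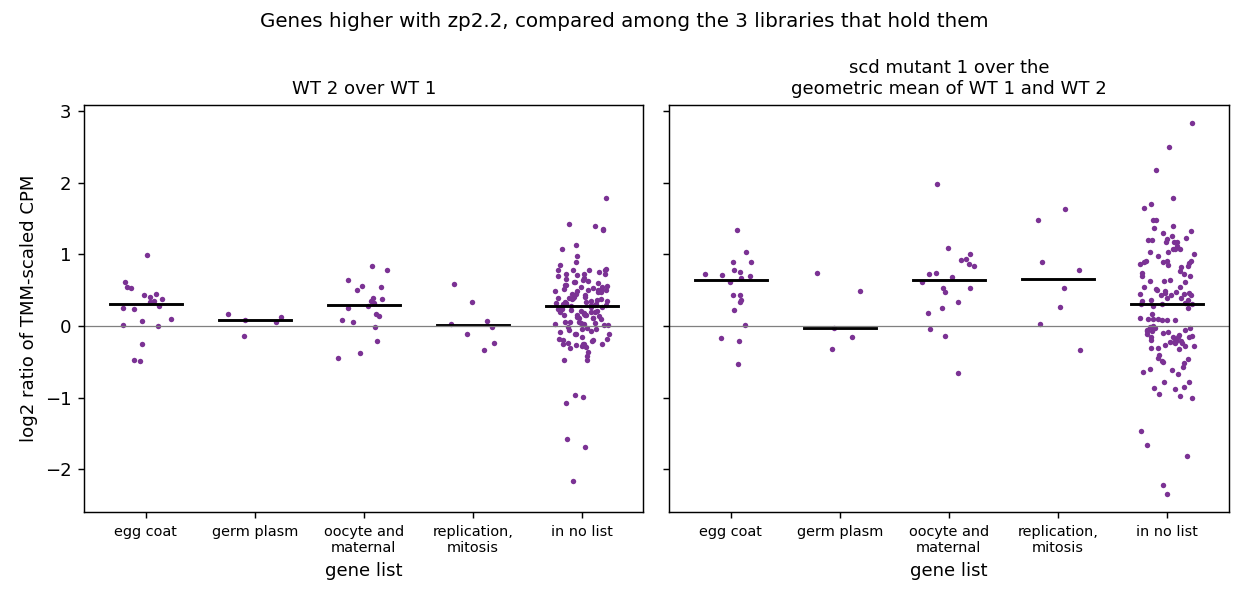
Each point is a gene that followed zp2.2 upward, grouped by gene list, with a black line at the list's median. The left panel gives the log2 ratio of TMM-scaled CPM in WT replicate 2 over WT replicate 1, and the right panel that of mutant replicate 1 over the geometric mean of both. The right panel is wider, with quartiles from -0.16 to 0.89 against -0.01 to 0.50 on the left. The scaling of the libraries shifts each panel as a whole.

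In the other direction few genes followed, and at low levels. The antiviral kinase gene pkz, whose product binds Z-form nucleic acid, stood at 0.144, 0.314 and 0.245 CPM on the zp2.2-high side and at 3.48, 1.52 and 2.93 CPM on the zp2.2-low side. The gene tmem176l.4 stood at 0.192, 0.105 and 0.0612 CPM against 3.14, 1.15 and 3.74 CPM, and si:dkey-220k22.3 at 0.240, 0.418 and 0.122 CPM against 1.91, 10.97 and 7.46 CPM. These 3 followed under all 4 scalings.

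By a 2-fold gap 41 genes were lower with zp2.2, 0.318% of those tested, and 7 of the 33 measured interferon-stimulated genes, 21.2%, were among them. They were mxa, ifit8, pkz, usp18, tap2a, psmb9a and psmb13a. The antiviral effector mxa stood at 0.0479, 0 and 0.428 CPM on the zp2.2-high side and at 3.53, 1.27 and 5.28 CPM in the others, and the peptide transporter gene tap2a at 0.767, 0.471 and 0.795 CPM against 12.7, 2.67 and 6.56 CPM. The immunoproteasome gene psmb9a was at 1.92, 2.301 and 4.16 CPM against 12.3, 8.46 and 19.0 CPM. The list's summed level overlapped, at 190 to 320 CPM against 313 to 1033 CPM. Under scaling by total counts 14 of the 33 were lower by 2-fold, and 15 without vitellogenin in the total, but these scalings move the median of all genes by -0.69 and -0.46 on the log2 scale, in the same direction. The leukocyte list stood at 175 to 227 CPM against 82.7 to 851 CPM, and its part in this was not tested.

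Of the other genes among the 41, 2 are given here, chosen after their values were seen. Of the list of fatty acid and triglyceride synthesis, plin2 was the 1 gene of 30 that was lower by 2-fold. The lipid droplet coat gene plin2 stood at 15, 26.3 and 13.6 CPM against 57.8, 90.8 and 95.3 CPM. The gene trib1, which encodes a pseudokinase of hepatic lipid control in the mouse, stood at 0.719, 2.46 and 2.45 CPM against 30.5, 7.02 and 8.48 CPM. Both genes met the 2-fold rule, which excludes an overlap of the sides. In proportion to its size, the count of lower genes moved more with single libraries than the upward count. By the 4-fold rule 41 genes were lower when mutant replicate 2 was left out, 29 without mutant replicate 1 and 23 without WT replicate 3. Each of these counts holds the 3 lower genes, since the rule is easier to meet with fewer libraries.

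**Figure D4:**
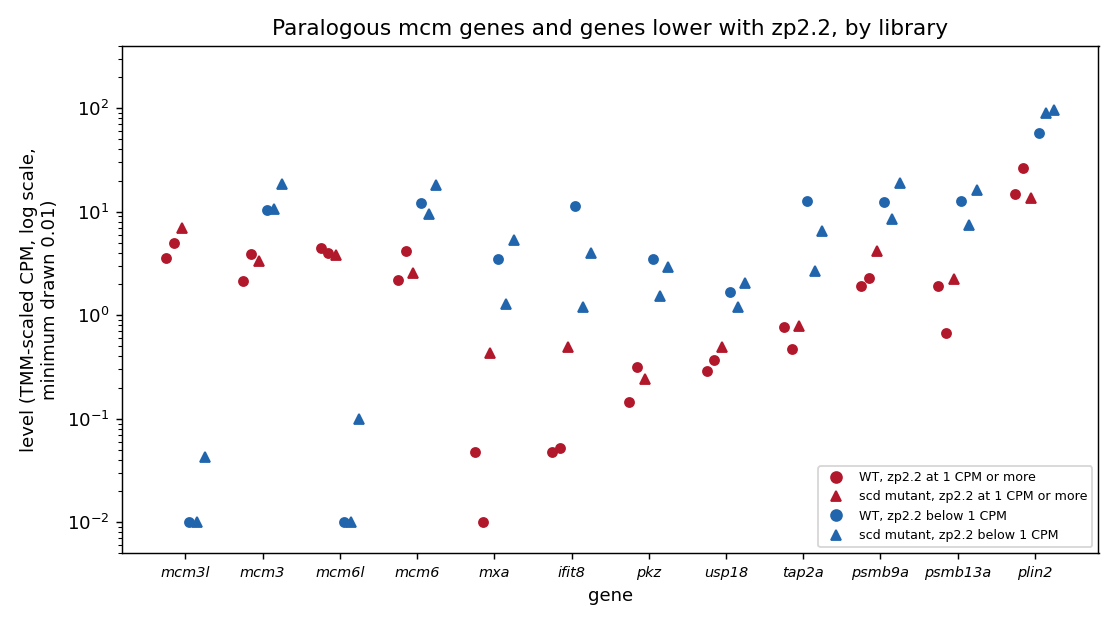
Levels of 12 genes in each library, in TMM-scaled CPM on a log axis with values under 0.01 drawn at 0.01, with circles for WT, triangles for mutant, red for zp2.2-high and blue for zp2.2-low libraries. The copies mcm3l and mcm6l are at 3.55 to 7.03 CPM in red and under 0.1 CPM in blue, whereas mcm3, mcm6, the 7 interferon-stimulated genes and plin2 are higher in every blue point than in any red one. The gap rules that these genes met require that separation.

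The same rule was set beside genotype and vitellogenin. Between the genotypes, 40 genes were higher in every mutant library and 49 lower, 0.31% and 0.38% of those tested. With mutant replicate 3, which lacked vitellogenin, set against the other 5 libraries, 104 were higher and 115 lower, 0.807% and 0.892%. None of the 192 genes that followed zp2.2 was among either set. A gene cannot satisfy the rule for zp2.2 and for genotype at once, so that overlap of 0 is fixed by the rules. An upward follower can be among the genes apart in mutant replicate 3 only at 1 CPM or more in WT replicate 3 and mutant replicate 2, which of the 4 genes above ppp1r3ca alone reached. Vitellogenin itself did not follow zp2.2. The yolk precursor vtg1 was at 248359, 374775 and 603381 CPM on the zp2.2-high side and at 404512, 238975 and 40.4 CPM on the zp2.2-low side, and the oestrogen receptor gene esr1 was at 85.4, 170 and 152 CPM against 156, 112 and 3.42 CPM. None of the 14 measured genes of the vitellogenin and oestrogen list followed. Their median log2 difference of 3.26 between the sides comes with mutant replicate 3, the library in which they were low.

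The genotype test did not call the followers. By the edgeR quasi-likelihood test 31 of 12889 genes were called at a Benjamini-Hochberg adjusted p under 0.05, 0.241%. Of the 189 upward followers 0 were called and 0 had an unadjusted p under 0.05, and the DESeq2 Wald test also called 0, with 1 at an unadjusted p under 0.05. With the zp2.2 division as a covariate 53 genes were called, 0 of the followers among them, and 14 followers had an unadjusted p under 0.05. A follower differs by 4-fold or more within each genotype, so the spread within a genotype is large for these genes by construction. Under scaling by total counts 2 were called, ppp1r3ca and si:zfos-1505d6.3. For ppp1r3ca the log2 fold change, mutant over WT, was -2.56, its standard error 1.3 and its Benjamini-Hochberg adjusted p 0.34 by the edgeR quasi-likelihood test. It was -2.5 with an adjusted p of 0.0217 under scaling by total counts. With the zp2.2 division as a covariate in the same edgeR test, the change of ppp1r3ca was -1.33 with an adjusted p of 0.173. Without mutant replicate 1, the WT side held both remaining zp2.2-high libraries, and 174 of the 189 had an unadjusted p under 0.05 with 0 called.

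The share of the variance between libraries along the zp2.2 division depended on the genes used. Over the 1000 most variable genes, on log2(CPM + 0.5), 41.9% of the variance lay along the zp2.2 division, 36.5% along genotype and 31.4% along the contrast of mutant replicate 3 with the rest, where an even share would be 20%. These contrasts are not independent of each other, so the shares do not add up. Over all 12889 genes the order was different, with 35.2% along the zp2.2 division, 37.1% along genotype and 33.4% along the contrast of mutant replicate 3. Of the 1000 most variable genes 166 were upward followers. After the 192 followers were left out, the 1000 most variable of the remaining genes gave 23.8%, 45.1% and 35.2%. The share of the zp2.2 division had to fall, because the genes left out were chosen by it. Without WT replicate 3 it was 60.9% before and 48.8% after the followers were left out. These values are on 5 libraries, for which an even share is larger. The zp2.2-low side then held mutant replicates 2 and 3 only, so the division overlapped more with genotype. The genotype shares in that setting were 45.2% and 47.4%. On the first principal component of the 1000 most variable genes, mutant replicate 1 had a score of -16.3, among the WT scores of -41.9 to -4.74. After the followers were left out it was at 8.27, outside the WT scores of -37.3 to -24.6. This too follows in part from the choice, since the genes left out place mutant replicate 1 with WT replicates 1 and 2.

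**Figure D5:**
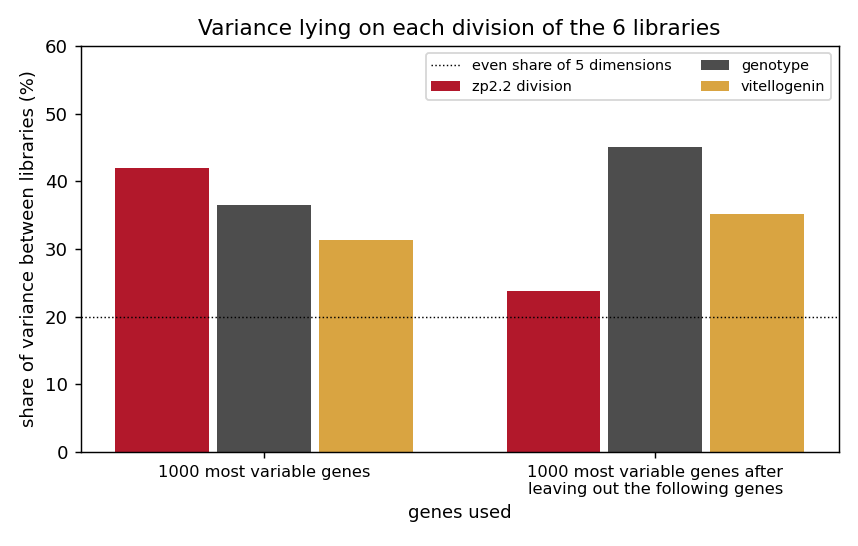
The share of the variance between libraries, in percent, that lay along the zp2.2 division (red), genotype (grey) and the contrast of mutant replicate 3 with the other libraries (yellow), for the 1000 most variable genes and for the 1000 most variable after the 192 followers were left out. The dotted line marks 20%, the even share of each of 5 dimensions. The red bar is 41.9% and 23.8%, and the grey bar 36.5% and 45.1%.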

How the data were processed

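For 6 liver libraries the authors deposited raw read counts per gene as whole numbers in 1 table. The submitters' processing notes name Trimmomatic 0.36, STAR 2.7, featureCounts 1.5.2 and build GRCz11. The sources used here do not state the use of strand in counting or the treatment of reads with several alignments, so counts of similar copies and of overlapping or antisense genes are uncertain. Of 30955 table entries 1 names no gene. It holds 0.568% to 1.02% of a library's counts and was left out, and all 6 columns of counts were matched to samples by name.

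The division was made on CPM of the total over named genes, and every other level is TMM-scaled CPM (edgeR 4.0.16, R 4.3.3). The filter was filterByExpr, grouped by genotype. Genotype was tested with edgeR's robust quasi-likelihood test over all 12889 genes with Benjamini-Hochberg adjustment, and a standard error is the size of the change over the square root of F. Counting intervals are exact, at 95%, and like the floor of 3 counts cover counting error only. They leave out the scaling, in which mutant replicate 3, with a TMM factor of 2.95, weighs most on the zp2.2-low side. No sequence of the genes was used here. The gap rule and the genotype test were each run on simulated counts with known changes.

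The genes named were drawn from zp2.2, the 15 genes with the largest ratio between the sides among those with at most 3 zp2.2-low counts, the 15 such graded and the 15 such lower genes (all at 5 CPM or more), and up to 5 followers of each of 38 gene lists or the list's most abundant gene. Not all of these are printed. No lower gene had a lowest value of 5 CPM. Other genes were named after their values were seen. The members and the lists were chosen with earlier results of these data known. The alternatives were scaling by total counts, by total counts without vitellogenin and by DESeq2 1.42.0 size factors, gaps of 2-fold and 8-fold, no filter beyond 1 count, the zp2.2 division as a covariate, the replicate number as a block, the DESeq2 Wald test, and each library left out in turn.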

Additional observations from a re-analysis of the deposited data

How the results depend on the processing

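The 189 upward followers were 157 under scaling by total counts, 190 under DESeq2 size factors, 220 without vitellogenin in the total, 230 by a 2-fold gap and 168 by an 8-fold gap, and 192 to 240 with a library left out, each of these last counts holding all 189, since the rule is easier to meet with fewer libraries. Of the 189, 157 followed under all 4 scalings. The 100 nearly absent genes were 103 to 136 with a library left out. The 3 downward followers were 13 under total counts, 25 without vitellogenin in the total, 41 by a 2-fold and 0 by an 8-fold gap, and 4 to 41 with a library left out.

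Between genotypes, the 40 higher genes were 68 without vitellogenin in the total, 170 by a 2-fold gap, 17 by an 8-fold gap and 49 to 90 with a library left out. The 49 lower ones were 21 under total counts, 201 by a 2-fold gap, 21 by an 8-fold gap and 65 to 148 with a library left out. For mutant replicate 3 against the rest, the 104 higher genes were 2057 under total counts, 297 without vitellogenin in the total, 512 by a 2-fold gap, 21 by an 8-fold gap, 225 with no filter and 112 to 164 with another library left out. The 115 lower ones were 33, 70, 619 and 46 under the first 4 of these and 118 to 341 with another library left out. Without mutant replicate 3 that contrast gives no value. The cause of these shifts was not tested.

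The 31 genotype calls (edgeR quasi-likelihood) were 472 under total counts, 211 with no filter, 53 with the zp2.2 division as a covariate, 1085 by the DESeq2 Wald test and 2 to 77 with a library left out. The count of followers called, 0, was 2 under total counts and 0 to 0 with a library left out. The labels share replicate numbers, but the deviations of same-numbered libraries correlated at 0.298, -0.211 and 0.32, so the numbers were not taken as pairs, and with the replicate block 2 genes were called. The log2 fold change of ppp1r3ca ranged from -4.38 to -2.11 with a library left out. With the zp2.2 division as a covariate it was -1.33, closer to 0 than in that range.

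The alternatives for the variance shares were chosen after seeing the data. The share of the zp2.2 division was 41.6%, 41.8% and 46.2% under total counts, DESeq2 size factors and total counts without vitellogenin, and 39.1% to 60.9% with a library left out. After the followers were left out it was 30.1%, 23.7% and 28.4%, and 21.2% to 48.8%. The genotype share was 33.3%, 36.6% and 35.9%, and 33.7% to 53.5%, and after leaving them out 37.5%, 45.3% and 44.6%, and 43% to 55.6%. A count of 0 in a library allows up to 3, so absence of a transcript below that level was not detectable.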
